A study of Danio rerio with 8 samples.

Results

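Untreated livers of zebrafish that carry an inducible Myc transgene were compared with untreated livers of wild-type zebrafish. The comparison used 4 of the 8 libraries of the series, 2 per genotype, and every transcript row with at least 5 CPM (a row's tags scaled to a common library total) in at least 2 of the 4. A row that a library did not list was taken as 0. Of 13923 rows listed in at least 1 of the 4 libraries, and 15600 in the whole series, 3715 passed and were tested. The series profiled Myc-induced liver cancer by 3' RNA-SAGE on SOLiD, a method that reads 1 short tag from the 3' part of an mRNA. The transgenic group (M+D-) is Tg(fabp10:TA; TRE:Myc; krt4:GFP), and the other group (M-D-) is wild type. Neither group was treated. In the other 4 libraries, doxycycline was given from 21 days after fertilization in tanks of about 25 fish, to transgenic fish (M+D+, labelled tumour) and to wild-type siblings (M-D+). The labels do not give the age or sex at sampling, whether a library is 1 fish or a pool, or which Myc coding sequence the transgene holds. The p-values therefore measure the spread between libraries, which may be technical.

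Myc is a transcription factor that pairs with Max on DNA and is known for raising the output of genes for ribosome assembly, translation and metabolism. In a tetracycline-controlled system a transactivator, here made from the promoter of the hepatocyte gene fabp10, binds the TRE promoter in front of the controlled gene depending on the drug, and output in the state meant to be off is called leak. The M+D- libraries are the arm of the design in which leak, or any other effect of carrying the transgene without the drug, could be seen.

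The 4 libraries held 4402174 and 4611804 tags (M-D-) and 5020859 and 4524373 tags (M+D-), so that a listed 0 left room for a level of 0.5975 to 0.6815 CPM, which is 3 tags by library (counting error alone). Hepatocyte markers were abundant. The 11 listed rows summed to 198620 and 199460 CPM in M-D- and to 213530 and 204070 CPM in M+D-, most of it fabp10a (157241 and 162367 against 169319 and 165997 CPM), and 0 of the 11 listed hepatocyte markers was at 0 in all 4 libraries. Across rows, the log2 values had a Pearson r of 0.961 between the M-D- libraries and of 0.969 between the M+D- libraries, against 0.912 to 0.945 across genotypes. M-D- library 2 stood nearer to the transgenic libraries than library 1 did: its median absolute log2 difference was 0.3491 and 0.3739 from the M+D- libraries and 0.3423 from its own partner.

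Without doxycycline few rows separated the genotypes beyond the error of this design. Limma called 4 rows at an adjusted p below 0.05, which is 0.108% of the rows tested, and all 4 were lower in M+D-. It called 0 rows higher, with 383 rows higher and 319 lower at an unadjusted p below 0.05 (10.3% and 8.59% of the rows). On the recovered tags, edgeR's quasi-likelihood test called 7 rows, 1 higher and 6 lower, and DESeq2 called 125 (3.36%), 56 higher and 69 lower. All 4 rows were among those called by both tools. Both M+D- libraries lay above both M-D- libraries in 1066 rows (28.7%) and below both in 916 (24.7%), 53.4% in all, and over all rows the log2 change had a median of 0.05. With TMM scaling (edgeR's trimmed mean of M-values, which rescales the libraries to 1 another) these shares were 25.7% above and 27.9% below, and the median was -0.01. The count of limma calls rests on single libraries: it was 13 (3 higher) without M-D- library 1, 194 (165 higher) without M-D- library 2, 13 (3 higher) without M+D- library 1 and 27 (4 higher) without M+D- library 2.

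**Figure D1:**
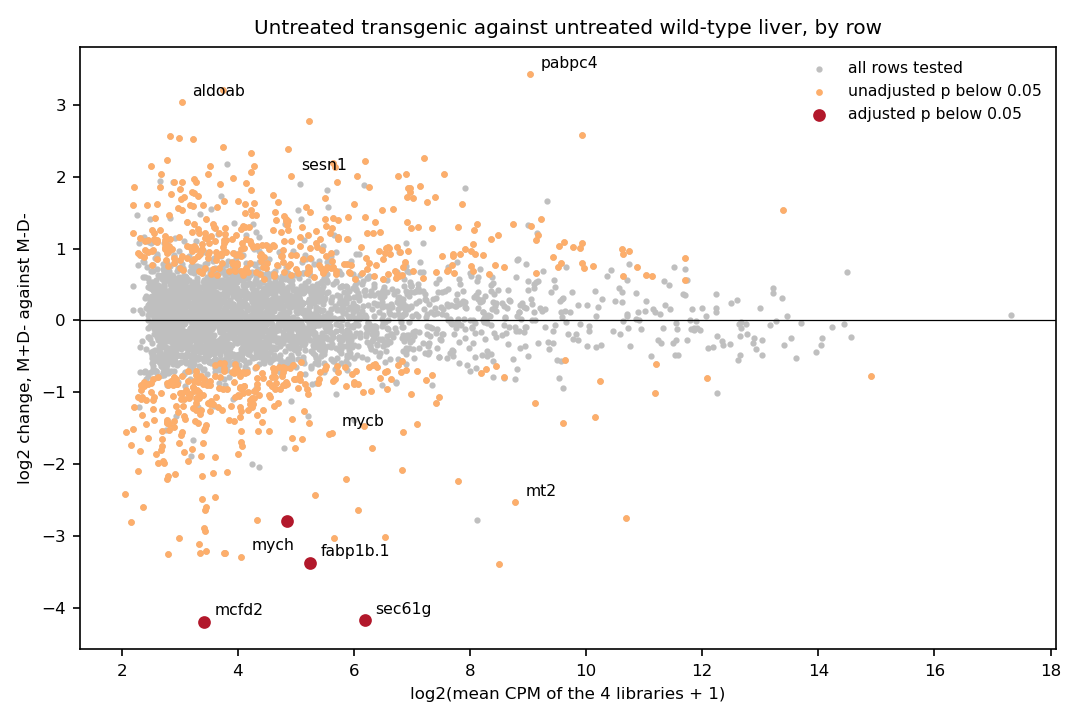
Each point is 1 of the 3715 rows tested, with its mean level (x, log2 of the mean CPM of the 4 libraries plus 1) and its log2 change in M+D- against M-D- (y). The 4 rows with an adjusted p below 0.05 (red) all lie below 0, while rows with an unadjusted p below 0.05 (orange) lie on both sides.

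The call with the smallest p was sec61g (NM_001002499), the gamma subunit of the Sec61 channel through which new proteins enter the endoplasmic reticulum. It was at 137.0 and 138.8 CPM in M-D- and at 6.17 and 7.29 CPM in M+D-. Both transgenic libraries were far below both wild-type libraries, and the libraries of a genotype were close to each other. The log2 change was -4.17 ± 0.23 (SE, n = 2 libraries per group; limma adjusted p = 0.00894), an 18.01-fold fall on the log2(CPM + 1) scale. The 2 wild-type libraries on doxycycline, however, were at 279.4 and 5.89 CPM, and the M+D+ libraries at 8.59 and 120.5 CPM. A level as low as that of M+D- thus occurred in 1 wild-type library.

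The fatty acid-binding protein gene fabp1b.1 (NM_001024651) was at 69.3 and 66.6 CPM in M-D- and at 5.18 and 6.19 CPM in M+D-. The groups did not overlap, and the fall was 10.3-fold (log2 change -3.37 ± 0.23, limma adjusted p = 0.0166). On doxycycline it was at 107.6 and 1.36 CPM in M-D+ and at 33.4 and 69.1 CPM in M+D+. M-D+ library 2 was again as low as M+D-.

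This gene is on the list of intestine markers, and several other members of that list moved with it. The largest row of the list, cyp3a65, went the other way. It was at 47.9 and 105.2 CPM in M-D- and at 212.9 and 107.6 CPM in M+D-. Leaving out fabp1b.1 and cyp3a65, which liver also expresses, 7 of the 8 other rows had tags in the 4 libraries, and 5 were lower in both M+D- libraries. Among all rows tested 24.7% were lower without overlap, but most of the 8 rows were under the filter. Of the 5, agr2 (0.23 and 0.65 CPM in M-D-) and chia.2 (0.91 and 0.87 CPM) rested on few tags, and both were at 0 in M+D-. The summed level of the 8 rows was 17.04 and 24.72 CPM in M-D- and 1.2 and 3.98 CPM in M+D-. It was 38.04 and 3.41 CPM in M-D+ and 1.09 and 24.43 CPM in M+D+. The actin-bundling brush-border gene vil1 was at 6.59 and 6.72 CPM in M-D- and at 0 and 2.21 CPM in M+D-, and the intestinal fatty acid-binding protein gene fabp2 at 5.45 and 12.6 against 1.2 and 1.55 CPM. The brush-border peptidase gene anpepb.1 was at 0 in all 4 libraries. Across the 8 libraries, low values of sec61g and of these markers met in the same libraries, and those of fabp1b.1 and mcfd2 did so in part. The called row without a gene symbol, described below, did not follow them. It was at 136.8 CPM in M-D+ library 2 and at 34.5 CPM in M+D+ library 1. M-D+ library 2 was low for sec61g, fabp1b.1 and the marker sum, as both M+D- libraries were, with mcfd2 at 9.51 CPM. M+D+ library 1 was low for sec61g, mcfd2 and the marker sum, but not for fabp1b.1. The part of these rows in the fall of fabp1b.1, or of the other called rows, was not tested. The labels record no dissection or handling batch, so a difference of that kind between the untreated groups cannot be told apart from genotype. In bulk liver RNA, fewer cells of a type and less RNA per cell cannot be told apart.

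The secretory-pathway gene mcfd2 (NM_001005939), whose product in mammals helps carry clotting factors from the endoplasmic reticulum to the Golgi, also fell. It was at 16.4 and 22.1 CPM in M-D- and at 0.2 and 0 CPM in M+D-, that is 174 tags against 1 tag. The ratio of the summed tags was 184 (exact 95% interval 32.6 to 7319, counting error only), and the fitted log2 change was -4.19 ± 0.36 (limma adjusted p = 0.0354). Without M-D- library 1 its adjusted p was 0.0593. It was named after its values were seen, since its mean is below the minimum used for naming genes. On doxycycline it was at 79.7 and 9.51 CPM in M-D+ and at 0.31 and 19.9 CPM in M+D+.

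The last call was a row without a gene symbol, RefSeq NM_001005403. It was at 55.6 and 42.9 CPM in M-D- and at 6.97 and 5.53 CPM in M+D-, a 6.92-fold fall (log2 change -2.79 ± 0.26, limma adjusted p = 0.0475). On doxycycline it was at 172.4 and 136.8 CPM in M-D+ and at 34.5 and 116.6 CPM in M+D+, again with no overlap. Every doxycycline library was thus above both M+D- libraries. When all 8 libraries shared 1 estimate of the spread, none of the 4 rows passed (limma adjusted p from 0.358 to 0.502), and 0 rows passed in all, with 359 at an unadjusted p below 0.05.

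**Figure D2:**
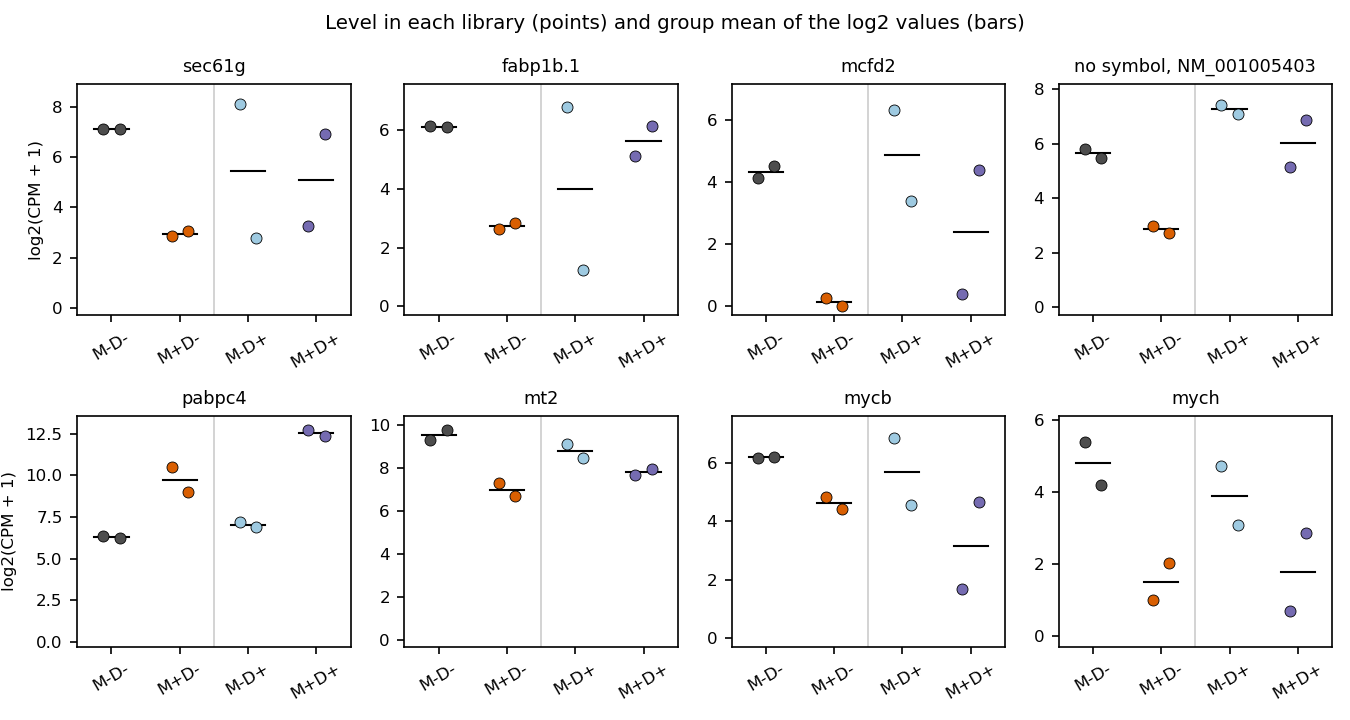
Level of 8 rows in each library (points, log2 of CPM plus 1) by group, with the mean of the 2 log2 values (bars); the grey line parts the untreated groups (left) from the doxycycline groups (right). The top panels show the 4 called rows, of which sec61g and fabp1b.1 are as low in 1 M-D+ library as in M+D-; the bottom panels show pabpc4 and 3 lower rows that did not pass.

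The endogenous myc genes were read next, since they share the transgene's family. They were not taken as a measure of the transgene, whose coding sequence the labels do not give. The row of mycb (NM_200172) was at 70.7 and 73.7 CPM in M-D- and at 27.5 and 20.6 CPM in M+D-. All transgenic values were below all wild-type values, with a log2 change of -1.56 ± 0.25 that did not pass (limma adjusted p = 0.116). For mych (NM_001126109) the levels were 40.9 and 17.6 CPM against 1 and 3.09 CPM, a log2 change of -3.29 ± 0.52 (limma adjusted p = 0.116). On doxycycline mycb was at 114.7 and 22.4 CPM in M-D+ and at 2.19 and 24.4 CPM in M+D+, with overlap. For mych the levels there were 25.6 and 7.48 against 0.63 and 6.28 CPM. Both were thus lower in M+D+ on average, as were 85.1% of all rows in the deposited values. Of all rows, 65.2% were lower there without overlap. After TMM scaling the log2 change on doxycycline was -1.57 for mycb and -1.30 for mych (limma adjusted p = 0.465 and 0.449). With that scaling 51.1% of all rows were lower. The row of myca was at 0 in all 4 untreated libraries. Levels of max, the partner of Myc, were 39.3 and 36.9 CPM in M-D- and 32.1 and 28.7 CPM in M+D- (log2 change -0.32 ± 0.23, limma adjusted p = 0.493). The gene whose promoter drives the transactivator, fabp10a, had a log2 change of 0.07 ± 0.19 (limma adjusted p = 0.864), which turned to just below 0 under TMM scaling. The row of krt4, whose promoter drives the GFP marker, stayed under the filter at 2.73 and 4.77 CPM in M-D- and 2.79 and 0.88 CPM in M+D-.

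No row that was higher in M+D- passed. Of the 12 higher genes named by rank, the one with the largest log2 change was pabpc4 (NM_201296), whose product coats the poly(A) tails of mRNAs in the cytoplasm. It was at 82.2 and 75.7 CPM in M-D- and at 1426 and 515.2 CPM in M+D-. The wild-type pair was tight and the transgenic pair was not, and the lower transgenic value was still well above both wild-type values. The log2 change was 3.43 ± 0.48, 10.7-fold, with an adjusted p of 0.105 by limma, 0.0596 by edgeR and 4.06e-10 by DESeq2. On doxycycline it was at 143.2 and 116.9 CPM in M-D+ and at 6818 and 5239 CPM in M+D+. Over the 4 groups, then, the wild-type libraries held 75.7 to 143.2 CPM, the untreated transgenic libraries stood between, and the doxycycline-treated transgenic libraries were highest.

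The other 11 higher genes named by rank were 2.12 to 5.25-fold higher, with limma adjusted p from 0.112 to 0.145. They included the hepatic lipase gene lipca, at 10 and 13.2 CPM in M-D- against 37.6 and 39.1 CPM in M+D-. The chaperonin subunit cct4 was at 51.1 and 48.1 against 184.2 and 118.7 CPM. Among the rest were 4 enzymes: the flavin monooxygenase fmo5, the monoamine oxidase mao, the cystathionine beta-synthase cbsb and the short-chain dehydrogenase dhrs11b.2. For mao the levels were 37.5 and 53.3 CPM in M-D- and 122.1 and 113.4 CPM in M+D-. The secreted inhibitor serpinf2a (antiplasmin), the plasma protein gene itih3b.2, the elastase inhibitor serpinb1 and the RNA-binding gene rbm48 also belonged to the group. In each of the 11 both transgenic libraries were above both wild-type libraries, as the rule asked.

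Among the lower genes named by rank, 10 did not pass (2.21 to 8.17-fold lower, limma adjusted p from 0.0891 to 0.135). The metallothionein gene mt2, which binds zinc and copper, was at 619.2 and 865.6 CPM in M-D- and at 156.2 and 101.9 CPM in M+D- (log2 change -2.53 ± 0.31, limma adjusted p = 0.0891), and it passed under TMM scaling (limma adjusted p = 0.0375). The prolyl isomerase gene fkbp11 of the endoplasmic reticulum was at 100.9 and 73.9 against 4.78 and 18.8 CPM. The glucocorticoid-responsive gene tsc22d3 was at 709.9 and 827.2 against 350.9 and 340.8 CPM. The others were the tubulin gene tubb2b, the matrix gene tgfbi, mycb, the amino acid transaminase bcat1, the mitochondrial chaperonin hspd1, the phosphatidylserine decarboxylase pisd and the translation helicase eif4a1a. The rows at the other extreme, with the smallest differences among abundant genes, were rps2, romo1, cox7c and rpl27a, each within 0.01 of no change on the log2 scale and with limma adjusted p from 0.990 to 0.993.

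Gene lists were then read for how their rows lay, against 28.7% of all rows above and 24.7% below without overlap and an all-row median of 0.05. The genes of protein folding and secretion in the endoplasmic reticulum lay low. Of 48 rows tested, 32 (66.7%) were lower in both M+D- libraries and 4 (8.33%) higher, and the median log2 change was -0.49 (-0.50 to -0.45 with each library left out in turn). Of these, 1 row passed (sec61g), and 17 lower and 2 higher rows had an unadjusted p below 0.05. The disulfide isomerase pdia6 was at 22.7 and 27.3 CPM in M-D- and at 8.17 and 5.53 CPM in M+D-. The chaperone cofactor dnajc3b was at 12.95 and 12.8 against 4.78 and 3.76 CPM, and the oligosaccharyltransferase subunit ostc at 7.5 and 10.4 against 3.59 and 1.99 CPM. The list was not uniform: the translocation gene sec62 was at 15.2 and 94.97 CPM in M-D- and at 183 and 137.5 CPM in M+D-, and the lectin chaperone calr at 5 and 13.9 against 20.3 and 23.6 CPM.

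Secretory genes are abundant in exocrine pancreas, whose markers are present in these liver libraries. The 24 listed pancreas rows summed to 4312 and 2160 CPM in M-D- and to 1400 and 2512 CPM in M+D-, so the groups overlapped, with the highest value in M-D- library 1. Of its 15 rows tested, 5 were lower and 1 higher without overlap, with a median log2 change of -0.52, about that of the secretory list (-0.95 to -0.01 with each library left out in turn). The 7 rows listed for endocrine pancreas summed to 61.8 and 68.7 CPM in M-D- and to 34.9 and 38.7 CPM in M+D-, with no overlap. The fall was led by the somatostatin gene sst1.1 (31.1 and 35.8 against 8.17 and 14.15 CPM). The row of ppdpfa had a higher mean in M+D-, with overlap (7.95 and 20.82 against 20.51 and 22.32 CPM), and was the largest part of the M+D- sums. Of the listed rows, insb was at 0 in all 4 libraries. The part of either tissue in the values of the secretory list was not tested.

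Ribosome biogenesis genes, which Myc is known to raise, also lay low. Of 30 rows tested, 18 (60.0%) were lower in both M+D- libraries and 2 (6.67%) higher, with a median log2 change of -0.55 (-0.71 to -0.48 with each library left out in turn). Limma, edgeR and DESeq2 each called 0 of them, and 13 lower rows and 1 higher row had an unadjusted p below 0.05. The ribosome assembly factor rrs1 was at 16.8 and 18.6 CPM in M-D- and at 7.37 and 6.41 CPM in M+D-, and the nucleolar gene npm1a at 9.77 and 14.7 against 4.58 and 4.64 CPM. The 1 higher row at that p was rcl1, at 138.6 and 173.9 against 287.4 and 302.1 CPM.

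Canonical Myc targets as a list were spread on both sides: 4 of 21 rows were higher without overlap, 9 lower, and the median was -0.18. Limma and edgeR called 0 of them, DESeq2 called 2 (cct4 higher, hspd1 lower), and 3 higher and 5 lower had an unadjusted p below 0.05. The 71 rows of cytosolic ribosomal proteins ranged from -0.78 to 0.62 on the log2 scale, with 12 higher and 17 lower without overlap, 2 of each at an unadjusted p below 0.05, and 0 calls by limma, edgeR or DESeq2. The row with the smallest p, rplp0 of the ribosomal stalk, was at 41479 and 35917 CPM in M-D- and at 20159 and 25166 CPM in M+D- (log2 change -0.78, limma adjusted p = 0.182), and rps24 was at 3047 and 2641 against 2000 and 1744 CPM. The list had a median of -0.09, whose sign turned when M-D- library 1 (0.03) or M+D- library 1 (0.05) was left out. All 73 listed rows took 37.7% and 31.9% of the tags in M-D-, against 26.8% and 32.1% in M+D-. The groups overlapped, and the transgenic mean minus the wild-type mean was -5.32 percentage points (exact permutation test, two-sided, p = 0.667), where 0.333 is the smallest that 6 splits allow. Translation factors (47 rows; 12 higher, 17 lower, median -0.06) held both pabpc4 and eif4a1a. Of 30 proteasome rows, 15 were lower and 5 higher without overlap, with a median of -0.27.

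**Figure D3:**
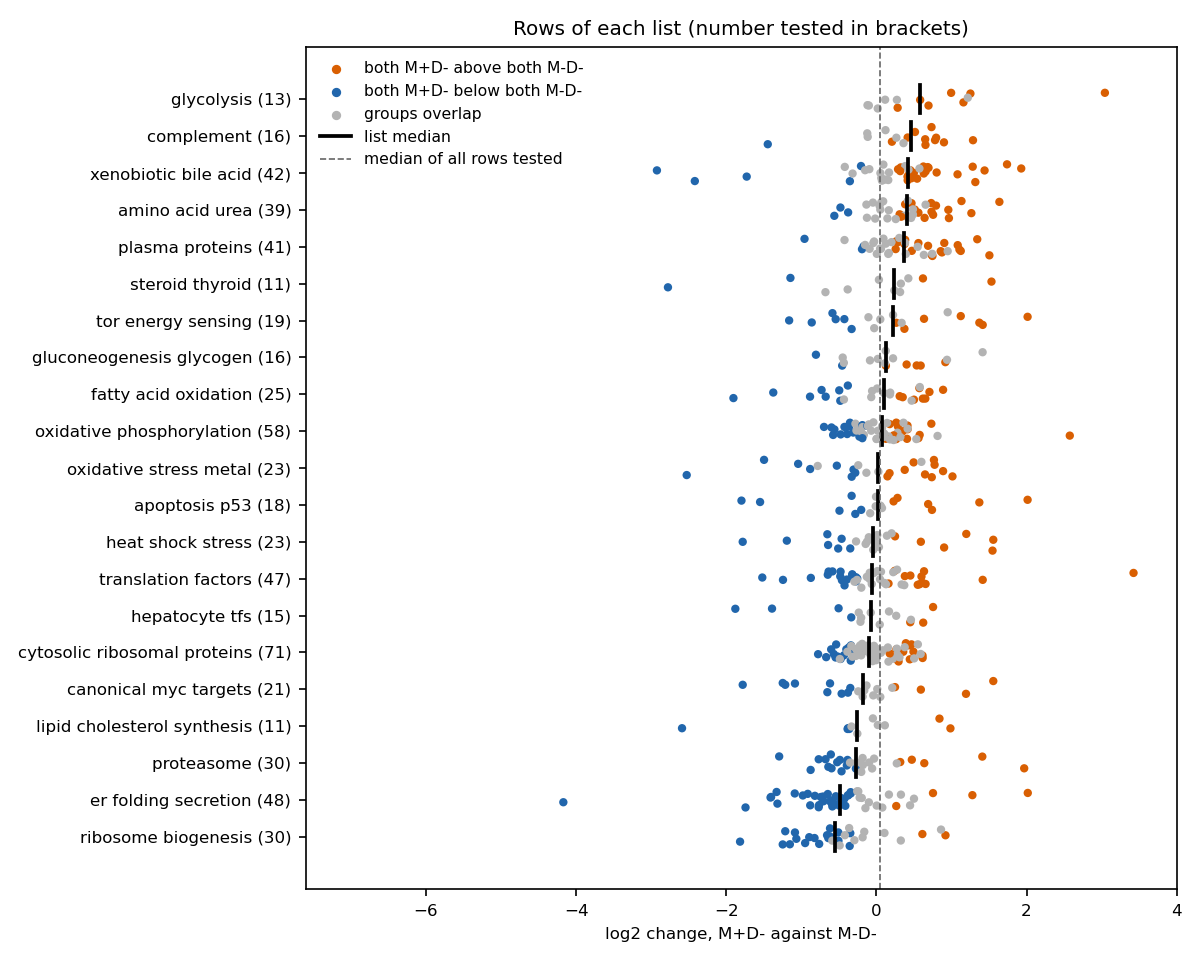
Log2 change in M+D- against M-D- of the rows of each pathway list with at least 10 rows tested, cell type marker lists left out (points, 1 per row, spread vertically for sight only), with the list median (black bar) and the median of all rows (dashed line, 0.05). Among the lists plotted, ribosome biogenesis and endoplasmic reticulum sit lowest, with medians of -0.55 and -0.49, and glycolysis and complement highest, with 0.58 and 0.47.

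Genes of hepatocyte output lay the other way. Of 41 plasma protein rows, 18 (43.9%) were higher in both M+D- libraries and 3 (7.32%) lower, with a median log2 change of 0.37, and of 16 complement rows 10 were higher and 1 lower, with a median of 0.47. The insulin-like growth factor binding protein gene igfbp1a was at 340.1 and 362.6 CPM in M-D- and at 665.8 and 881.9 CPM in M+D-, and serpinf2a at 666.7 and 578.3 against 1399 and 1240 CPM. The apolipoprotein gene apoeb was at 2040 and 2677 against 4485 and 4087 CPM. The 1 complement row that was lower was mbl2, a mannose-binding lectin, at 5.91 and 7.37 against 0.8 and 3.32 CPM. Limma and edgeR called 0 rows of either list, and DESeq2 called 3 plasma protein rows higher. At an unadjusted p below 0.05 there were 11 higher plasma protein rows and 1 lower, and 5 higher complement rows and 1 lower.

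Enzymes of drug, bile acid and amino acid metabolism had the same lean. Of 42 xenobiotic and bile acid rows, 23 (54.8%) were higher and 5 lower without overlap (median 0.42), and of 39 amino acid and urea cycle rows 19 (48.7%) were higher and 3 lower (median 0.40). With each library left out in turn these medians ranged from 0.24 to 0.50 and from 0.22 to 0.56. The rate-limiting enzyme of bile acid synthesis, cyp7a1, was at 19.3 and 44.5 CPM in M-D- and at 58.4 and 113.6 CPM in M+D-. The tyrosine aminotransferase tat was at 164.9 and 183.2 against 366.9 and 316.1 CPM. Some cytochrome P450 rows went the other way, cyp2k6 at 13.6 and 22.6 against 1 and 1.99 CPM and cyp2aa4 at 6.36 and 5.64 against 0.4 and 0.22 CPM. For cyp2aa4 this was 54 tags against 3, a ratio of 19.1 (exact 95% interval 6.18 to 95.3, counting error only). Related P450 transcripts can share a 3' tag, and the sources used here do not say how shared tags were handled. Limma and edgeR called 0 rows of these lists, DESeq2 called 4 xenobiotic rows, 2 in each direction, and 0 amino acid rows. At an unadjusted p below 0.05 there were 10 higher and 3 lower xenobiotic rows, and 9 higher and 0 lower amino acid rows.

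Of 13 glycolysis rows, 7 were higher without overlap and 0 lower, with a median of 0.58. The row of aldoab (NM_213215), an aldolase A gene, was at 0.91 and 0.65 CPM in M-D- and at 12.8 and 14.6 CPM in M+D-. The log2 change was 3.04 ± 0.33, with a limma adjusted p of 0.0734 and an edgeR adjusted p of 0.0266, and it was the 1 higher row that edgeR called. The phosphoglycerate mutase gene pgam2 was at 10.22 and 17.1 against 35.6 and 30.5 CPM. With the drug, aldoab was at 1.19 and 3.62 CPM in M-D+ and at 2.97 and 36.66 CPM in M+D+. There pgam2 was at 8.92 and 11.78 CPM in M-D+ and at 63.91 and 78.91 CPM in M+D+. Both are muscle isoforms in mammals, and skeletal muscle markers were also higher. The 16 muscle rows summed to 65.2 and 173.7 CPM in M-D- and to 472.8 and 379.3 CPM in M+D-, and, without the creatine kinase ckmb and the actin acta1a, the other 14 summed to 3.41 and 3.25 against 69.5 and 25.4 CPM. On doxycycline the 16 rows summed to 174.7 and 442 CPM in M-D+ and to 398.9 and 136.2 CPM in M+D+. A sum as high as that of M+D- thus occurred in 1 wild-type library. The 14 rows summed to 8.9 and 2.04 CPM in M-D+ and to 3.46 and 3.15 CPM in M+D+. The M+D- libraries differed in these rows, with actc1b at 26.5 and 2.87 CPM and acta1b at 0.2 and 12.6 CPM. The fast myosin rows myhz1.2 and myhz2 were at 0 in all 4 untreated libraries. The part of these rows in the glycolysis values was not tested.

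Of 19 rows of TOR and energy sensing, 7 were higher and 6 lower without overlap, and of 18 rows of apoptosis and p53 response likewise 7 and 6. Limma and edgeR called 0 rows of either list, while 4 higher and 2 lower rows in each had an unadjusted p below 0.05, and DESeq2 called 2 higher rows in the first and 1 in each direction in the second. The sestrin gene sesn1, a brake on TOR signalling, was at 8.18 and 12.6 CPM in M-D- and at 67.9 and 28.5 CPM in M+D-, and the translation repressor eif4ebp3l at 3.86 and 6.29 against 14.7 and 15.03 CPM. The stress gene gadd45ba was lower, at 154.2 and 186.3 against 73.3 and 44.6 CPM, and so was cebpa, a hepatocyte transcription factor, at 15.7 and 14.5 against 2.39 and 4.64 CPM. None of these 4 passed (limma adjusted p from 0.135 to 0.161). The hepatocyte transcription factor list, which holds cebpa, did not lean the same way. Of its 15 rows tested, 3 were higher and 4 lower without overlap, with a median of -0.08. The cholesterol synthesis gene hmgcs1 was at 18.2 and 16.7 against 3.98 and 0.88 CPM (limma adjusted p = 0.135), while its list as a whole, 11 rows with a median of -0.25, had 4 rows lower and 2 higher without overlap. Of 58 oxidative phosphorylation rows, 15 were higher and 16 lower without overlap, with a median of 0.07, close to that of all rows.

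Of 5 tested rows of the egg coat and estrogen list, 4 were lower in both M+D- libraries (zp3b, zp3a.1, zp3a.2 and esr1), and the estrogen receptor row esr2b overlapped. Limma and edgeR called 0 of them (limma adjusted p from 0.157 to 0.164 for the 4, each with an unadjusted p below 0.05), and DESeq2 called the 4. The egg coat gene zp3a.2 was at 7.04 and 41.2 CPM in M-D- and at 0.8 and 1.11 CPM in M+D-, and the estrogen receptor gene esr1 at 12.3 and 23.9 against 1.59 and 5.75 CPM. All 15 listed egg and ovary markers summed to 18.6 and 100 CPM in M-D- and to 6.18 and 5.09 CPM in M+D-, and ddx4 was at 0 in all 4 libraries. The highest value by far was that of M-D- library 2. The labels do not give the sex of the fish. The part of sex or of ovary RNA in these values was not tested.

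**Figure D4:**
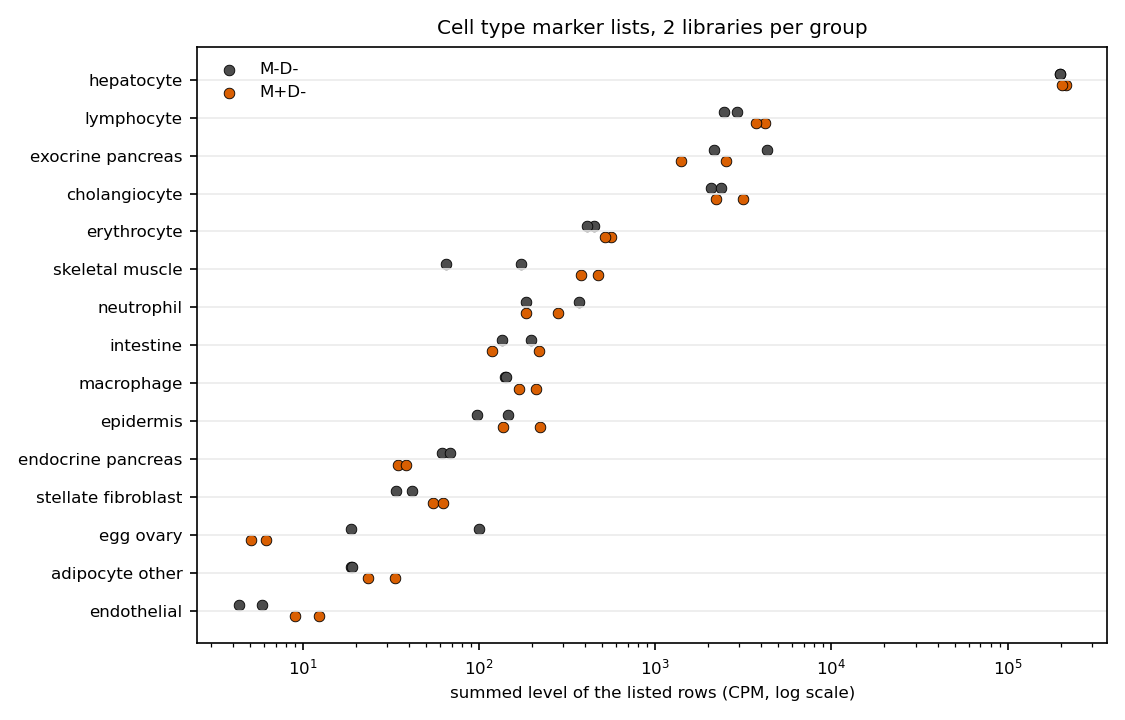
Summed level (x, CPM, log scale) of each cell type marker list in the 2 M-D- libraries (grey) and the 2 M+D- libraries (orange). Egg and endocrine pancreas sums are lower in M+D- without overlap. Muscle, hepatocyte, stellate, endothelial, macrophage, lymphocyte, erythrocyte and adipocyte sums are higher without overlap. Without their largest row, the hepatocyte (fabp10a), macrophage (cd63), lymphocyte (il7r) and adipocyte (cfd) sums overlap, and the erythrocyte sum (hbba1) is lower without overlap. After TMM scaling the hepatocyte sums overlap. The exocrine pancreas, cholangiocyte, neutrophil and epidermis sums overlap, as does the intestine sum when cyp3a65, a gene that liver also expresses, is included (without it 86.3 and 91.3 against 6.38 and 10.17 CPM). The neutrophil sum is mostly cpa5, a row that is also on the exocrine pancreas list. The other 5 neutrophil rows sum to 23.16 and 48.58 CPM in M-D- and to 60.75 and 64.31 CPM in M+D-, higher without overlap. That sum is nearly all 1 row, mpx (22.03 and 46.84 against 58.95 and 62.77 CPM), and each of the rest is below 1 CPM.

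The stellate, endothelial, macrophage, lymphocyte, erythrocyte and adipocyte sums were also higher in M+D- without overlap. Among these lists, only the stellate and endothelial sums stayed so without their largest row. Endothelial markers, all under the filter, summed to 4.32 and 5.85 CPM in M-D- and to 8.96 and 12.38 CPM in M+D-, and stellate cell and fibroblast markers to 41.6 and 33.8 against 54.8 and 62.3 CPM. Erythrocyte markers summed to 448 and 411 CPM in M-D- and to 562 and 520 CPM in M+D-, which rested on 1 row, hbba1. The other 8 erythrocyte rows summed to 185.6 and 173.7 CPM in M-D- and to 143 and 153.2 CPM in M+D-, lower without overlap. Macrophage markers summed to 140.2 and 141.6 against 209.5 and 168.4 CPM. Without cd63 the macrophage groups overlapped (61.11 and 85 against 109.8 and 82.44 CPM). The lymphocyte sum was nearly all 1 row, il7r, and the other 6 rows summed to 1.1 to 2.59 CPM in the 4 libraries.

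The same genotype difference on doxycycline was measured in 4 libraries that share none with the untreated comparison, and its values were set beside those above. There, limma called 773 of the 3715 rows (20.8%), of which 745 were lower, around an all-row median of -1.01. With TMM scaling that median moved to -0.03, and the 1 row called was pabpc4, higher (limma adjusted p = 0.0145). In the deposited values 6 of the 12 higher genes named by rank were also higher in M+D+ than in M-D+, against 14.9% of all rows, and 11 of the 12 lower genes were also lower, against 85.1% of all rows. After TMM scaling the counts were 8 of 12 and 9 of 12, against 48.9% and 51.1% of all rows. The 9 include tgfbi, whose value on doxycycline was almost no change (-0.000258). Genes that differed in the same direction in both states after TMM scaling included pabpc4 (log2 change 3.36 without and 6.58 with doxycycline), itih3b.2 (1.44 and 2.31), hspd1 (-1.85 and -2.26) and bcat1 (-1.71 and -2.62). Of the 4 rows called without doxycycline, sec61g and fabp1b.1 had a positive value on doxycycline after TMM scaling (0.63 and 2.56), and mcfd2 (-1.67) and NM_001005403 (-0.20) a negative one.

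**Figure D5:**
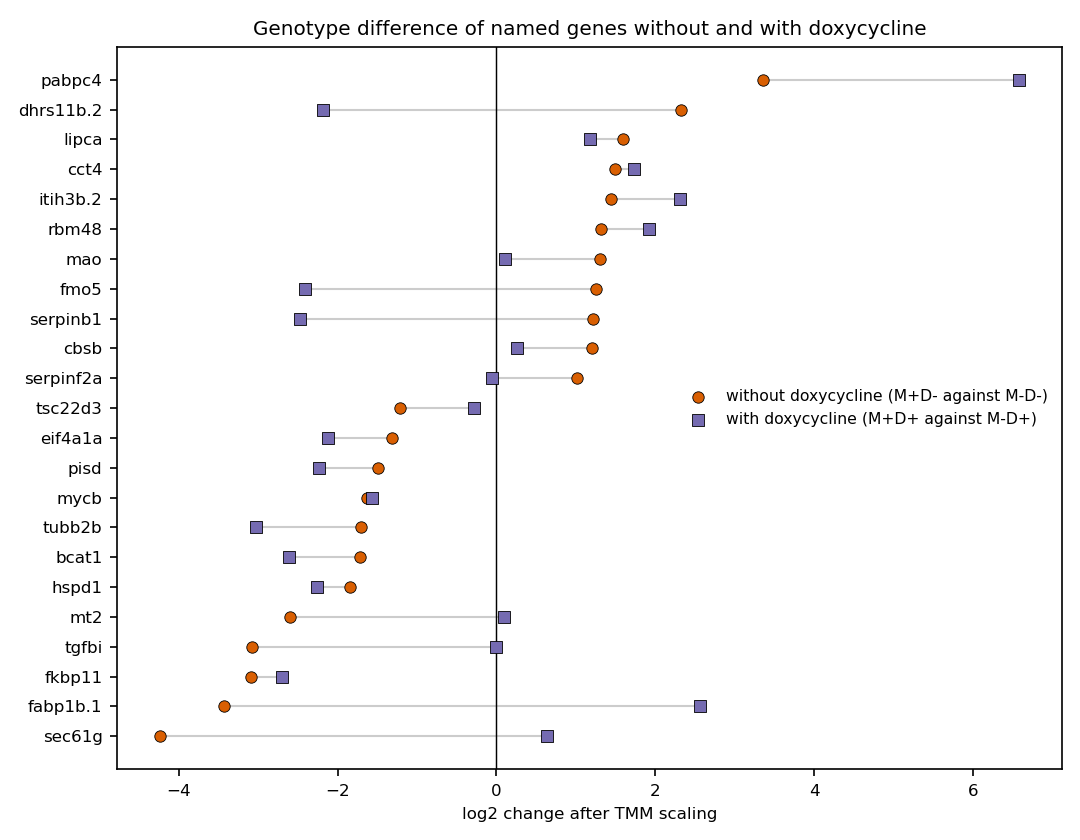
Log2 change after TMM scaling of 11 of the 12 higher genes and the 12 lower genes named by rank, without doxycycline (orange circles, M+D- against M-D-) and with it (purple squares, M+D+ against M-D+). Of the higher genes plotted 7 stay to the right of 0 on doxycycline. Of the lower genes 9 stay to the left, tgfbi only just (-0.000258), while fabp1b.1, sec61g and mt2 (0.09 on doxycycline) lie on opposite sides.

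Beyond the named genes, 68.7% of the 383 rows that were higher without doxycycline at an unadjusted p below 0.05 were also higher on doxycycline after TMM scaling, where 48.9% of all rows were. Of the 319 rows that were lower, 79.3% were also lower, where 51.1% of all rows were. In the deposited values the shares were 28.2% against 14.9% for the higher rows and 94.4% against 85.1% for the lower rows. These shares describe rows of the same libraries, which are not independent of each other, and no test was made of them. Whether the genotype difference itself differed between the drug states was tested by the interaction term of a fit to all 8 libraries, which called 413 rows (11.1%; 12 with a more positive and 401 with a more negative difference on doxycycline). After TMM scaling it called 3 rows (0.0808%), all with a more positive difference.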

How the data were processed

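Liver total RNA was profiled by 3' RNA-SAGE on SOLiD, per the labels and the series' design text, and the authors deposited 1 table per library with a GI number, a RefSeq accession and CPM values. Aligner, build and tag assignment: not given in the sources used here. Nearly all deposited CPM values were whole multiples of 1 step per library: counting a value as whole within 0.1 of a tag, 100% of those at 20 tags or fewer and 99.9% or more overall were whole, which gave the recovered tag counts. Tables were joined on GI number, with an absent row as 0. Symbols came from RefSeq tables of assembly GRCz12tu, used for names only (3064 of 3715 tested rows, 82.5%); 651 rows had none. Totals ranged from 4402174 to 5020859 tags in the 4 untreated libraries and from 1682372 (M-D+ library 1, where 3 tags are 1.783 CPM) to 6399939 in the 4 doxycycline libraries; intervals and floors cover counting error only.

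The main test was limma 3.58.1 (R 4.3.3; trend, not robust) on log2(CPM + 1) of the deposited values, two-sided, with Benjamini-Hochberg adjustment over 3715 rows, a threshold of 0.05, 2 residual and 3.83 prior degrees of freedom. The log2 scale with a pseudocount of 1 understates changes of low rows. edgeR 4.0.16 and DESeq2 1.42.0 ran on the recovered tags as alternatives. Scripts were tested on simulated data. Groups came from sample titles. Other settings tried were the pseudocount, the filter, TMM scaling, robust variance, a replicate block, all 8 libraries in 1 fit and leaving out each library.

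Genes named by rank were the 12 higher and 12 lower rows that had a symbol, averaged 20 CPM or more and showed no overlap between groups, taken by log2 change among called rows and otherwise by smallest p. The genes mycb, mych, myca, fabp10a, krt4 and pabpc4 were always named, as were the 4 steadiest rows among abundant genes. In lists, rows with the smallest p were named, and some rows of the lists were chosen after their values were seen. The groups, gene lists and tests were chosen with earlier results of these data known. Leaving out 1 library leaves a lone sample that is assumed to vary like the other group. No sequences are shown, and 1 gene named by rank is not reported here.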

Additional observations from a re-analysis of the deposited data

Results flagged for a closer look

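The genotype difference changed between the drug states for 10 of the 94 rows that were followed (interaction term of the 8-library limma fit on the deposited values, adjusted p from 0.0381 to 0.0443). The same term called 413 of the 3715 rows tested (11.1%), so the followed rows were called about as often as all rows. The values below are the log2 difference on doxycycline minus that without. For metabolic enzyme and protease inhibitor genes that were higher in M+D- without the drug, the value was -4.74 for fmo5, -2.32 for mao, -4.81 for serpinb1 and -5.59 for dhrs11b.2. Among the same genes it was -2.21 for serpinf2a, -3.42 for the fatty acid elongase elovl2 and -6.52 for hsd11b2, which inactivates cortisol. It was -2.5 for the chromatin gene hmgb2a. For genes that were lower in both states it was -2.42 for tubb2b and -1.9 for eif4a1a. After TMM scaling none of the 10 passed (limma adjusted p from 0.0674 to 0.336), and edgeR called 0 rows for this term, with 610 at an unadjusted p below 0.05. On the deposited values the median of this term over all rows was -1.07, against -0.14 after TMM scaling.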

How the results depend on the processing

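For M+D- against M-D-, limma called 4 rows, 4 with a pseudocount of 0.5 and 4 with robust variance. It called 7 with a pseudocount of 5, 1 with no filter, 2 with a filter of 20 CPM and 13 with TMM scaling (1 higher). All 8 libraries in 1 fit gave 0 calls, edgeR 7 and DESeq2 125, and leaving out 1 library gave 13 to 194. Among the 94 single rows named or followed, the number that crossed the adjusted p threshold ranged from 0 (pseudocount 0.5, robust variance) to 38 (DESeq2, all gained). A row at 0 allowed up to 0.5975 to 0.6815 CPM, so absence was not detectable below that. The causes of these changes were not tested.

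Same-numbered libraries are not shown to be paired: their deviations from the group means had a correlation of -0.1601 across rows. The replicate block gave 1 call (sec61g), and the block with TMM scaling, chosen after seeing the data like all 8 libraries with TMM scaling (0 calls, 399 at an unadjusted p below 0.05), gave 83 calls (32 higher). The crossed pairing, also chosen after seeing the data, gave 226 calls.

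For M+D+ against M-D+, 773 calls became 1516 with no filter, 453 with a filter of 20 CPM, 1 with TMM scaling, 0 with the block, 0 with the block and TMM scaling, 1670 with all 8 libraries, 637 with all 8 and TMM scaling, 0 by edgeR (849 at an unadjusted p below 0.05) and 347 by DESeq2 (221 higher), and 0 to 300 with 1 library left out. For the interaction, 413 calls became 0 with no filter, 3 with TMM scaling, 6 with the block, 0 with the block and TMM scaling, 0 by edgeR and 156 by DESeq2 (109 higher), and 0 to 530 with 1 library left out.

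Turned signs concerned rows that pass under no setting that turned them. For fabp10a the log2 change was -0.000945 with TMM scaling, with or without the block, and -0.00129 by edgeR. For romo1 it was -0.0658 with TMM scaling, with or without the block, -0.0501 with all 8 libraries and TMM scaling, -0.0667 by edgeR and -0.049 by DESeq2. For cox7c the values in the same order were -0.0653, -0.0496, -0.0686 and -0.0507. With 1 library left out, cpa5 ranged from -1.09 to 0.25, fabp4a from -0.49 to 0.037, rps2 from -0.28 to 0.27, rpl27a from -0.14 to 0.13, romo1 from -0.058 to 0.067 and cox7c from -0.0506 to 0.0600. Leaving out 1 library also turned the sign of the median of the lists of cytosolic ribosomal proteins, fatty acid oxidation, TOR signalling, mitosis, apoptosis, heat shock, hepatocyte transcription factors, steroid and thyroid genes, cholangiocytes and erythrocytes, and of all rows (-0.02 without M-D- library 1). The promoter motif count was not run, since no promoter table was given.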

Other observations

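Some rows not described above differed by several fold without passing by limma. The gene lgals3bp.3, for a galectin-3-binding protein, averaged 18.9 CPM in M-D- and 1.12 CPM in M+D- (limma adjusted p = 0.0922), the gene cyp46a1.1, in mammals a brain cholesterol hydroxylase, averaged 11.5 against 0.32 CPM (0.0734), and nsfa, a vesicle fusion ATPase, averaged 17.3 against 0.975 CPM (0.101). These 3 rows passed after TMM scaling (limma adjusted p = 0.0489, 0.0375 and 0.0489). They were chosen after their values were seen.

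The vitamin D-degrading enzyme gene cyp24a1 was at 429.8 and 430.4 CPM in M-D- and at 15.7 and 235.4 CPM in M+D-, so that 1 transgenic library stood far below the other 3. The complex I subunit gene ndufb11 was at 92.2 and 714.5 CPM in M-D- and at 1688 and 1404 CPM in M+D-, with M-D- library 1 far below the others. Of 8 circadian clock rows, 6 were higher in both M+D- libraries and 1 lower, with a median log2 change of 0.65. The Period gene per1b, a repressor within the clock, was at 23.9 and 31.7 CPM in M-D- and at 49.2 and 41.1 CPM in M+D-. Limma, edgeR and DESeq2 called 0 of the clock rows, and 3 were higher at an unadjusted p below 0.05. The labels do not give the time of day at sampling.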
